A study of Mus musculus with 3 samples.

Results

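Triglyceride is built on glycerol 3-phosphate by a short series of enzymes, and the signals of 9 of their genes in mouse gastrocnemius muscle are described here. The genes were taken as a named set: the glycerol-3-phosphate acyltransferases Gpat3 and Gpam, the acylglycerolphosphate acyltransferases Agpat1, Agpat2 and Agpat3, the lipins Lpin1 and Lpin2, and the diacylglycerol acyltransferases Dgat1 and Dgat2. All 9 were measured, by 20 probe sets (groups of short probes against 1 transcript) among the 34945 that carried a single gene symbol, which covered 18193 genes. The set was picked from a pathway with earlier readings of these same arrays known, so the values below are a description. Where a gene had several probe sets, the one to stand for it was selected by signal (the one brightest by its log2 mean across arrays), and its other probe sets served as a check. All 9 chosen probe sets lay above the median signal.

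Gastrocnemius of male C57BL/6J mice was measured in the Control (10% kcal fat, diet D12450B), HF (60% kcal fat, diet D12492) and HF + SFC groups, the last of which ate D12492 that held sodium ferrous citrate (SFC), an iron salt, at 0.023% by weight. Diets began at 6 weeks of age and lasted 15 weeks, although age is labelled as 21 months. Each group was 1 pool of all its samples on 1 array, 3 arrays in all, so that no difference has a replicate check, no test was run and no error can be given. Ratios of the linear MAS5 intensities were taken between arrays for the same probe set, because probe sets bind with different strength, and a sum over marker genes is therefore dominated by its brightest probe sets.

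In the first step of this pathway a GPAT enzyme joins a fatty acid to glycerol 3-phosphate, and in the second an AGPAT enzyme adds another to give phosphatidate. Lipins remove the phosphate from phosphatidate to leave diacylglycerol, which a DGAT enzyme acylates to triglyceride or which other enzymes divert to phospholipids. Muscle stores the triglyceride in droplets beside its mitochondria, and the fat cells that lie between the fibres use the same enzymes.

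The enzymes of the pathway had no common direction in HF muscle. Gpat3 and Lpin1 had lower signals in HF than in Control (0.516-fold and 0.765-fold), and Agpat2 and Dgat2 had higher ones (1.70-fold and 1.46-fold). Of the 9 genes, 5 had a higher and 4 a lower signal, and their log2 ratios had a median of 0.05, against 0.01 over all 18193 genes, of which 50.7% were higher. At 1.5-fold or more, 1 member was higher (Agpat2) and 1 lower (Gpat3), where 17% of all genes were that much higher and 12.2% that much lower. Because dim probe sets pass this fold far more often, the share depends on signal: above the 75th percentile of signal 1.53% of 6716 genes were 1.5-fold higher and 1.07% lower, and between the median and the 75th percentile 12.2% of 4883 genes were higher and 6.76% lower. Agpat2, Gpat3 and Lpin2 belonged to the second class and the other 6 genes to the first.

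**Figure D1:**
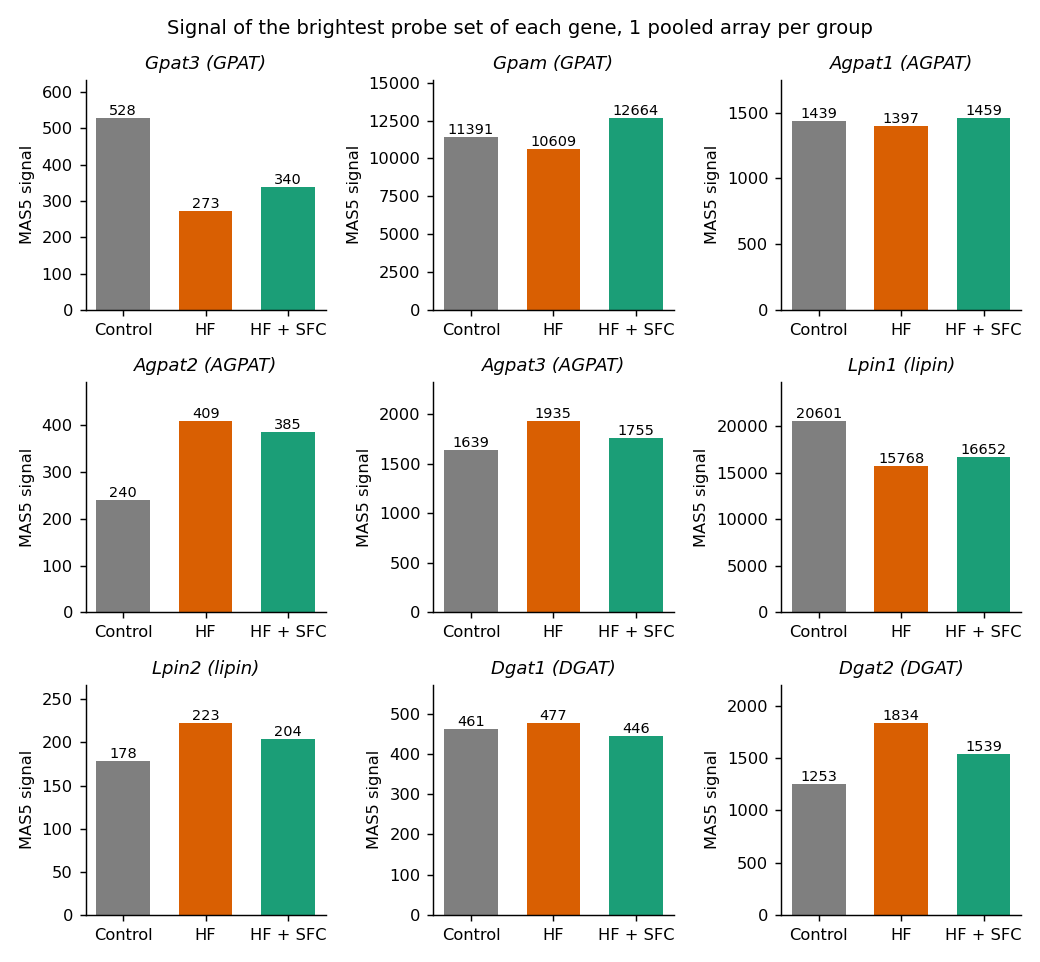
MAS5 signal (linear axis from 0) of the brightest probe set of each of the 9 genes on the Control, HF and HF + SFC arrays, 1 pooled array per group, with the value above each bar and no error bars. Gpat3 was lowest in HF (273 against 528 in Control), while Agpat2 (409 against 240.3) and Dgat2 (1834 against 1253) were highest there.

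Gpat3, a first-step enzyme of the endoplasmic reticulum, had the widest range of the 9 genes. Its single probe set read 528 (Control), 273 (HF) and 339.7 (HF + SFC). The HF array was the lowest and the HF + SFC array lay nearer to HF than to Control, at 0.643 of the Control signal. Among 1434 genes with a mean signal between 300 and 500, 95% had HF to Control ratios from 0.666 to 1.57, and Gpat3 at 0.516 lay below that range. Gpam, which encodes the GPAT of the outer mitochondrial membrane, read 11391, 10609 and 12664 in Control, HF and HF + SFC. It was thus highest with SFC, at 1.19 times the HF signal. Its dimmer probe set, which may bind several transcripts, read 314, 221 and 347. The order of the arrays was the same there, with a wider ratio of HF + SFC to HF (1.57-fold).

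Agpat2, an enzyme needed for fat storage in adipose tissue, was higher on both high-fat arrays. Its single probe set read 240.3 in Control and 409 and 385 on the HF and HF + SFC arrays. HF + SFC differed little from HF, with a ratio of 0.940. The HF to Control ratio of 1.70 lay above the middle 95% of the genes with signals between 300 and 500, whose upper bound was 1.57. It lay inside the middle 95% of all genes between the median and the 75th percentile of signal (0.548 to 2.11). Agpat1, a broadly expressed form, read 1439, 1397 and 1459, and its second probe set 1055, 913 and 1027. Both probe sets were lowest in HF, at 0.970 and 0.865 of Control. Agpat3 read 1639, 1935 and 1755 on its brightest probe set, which, like the next, may bind several transcripts. Its 4 probe sets did not share a direction, with HF to Control ratios of 1.18, 0.875, 1.09 and 1.56 from the brightest to the dimmest. The last of these, at 139 in Control and 217 in HF, was the only one past 1.5-fold.

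Lpin1 encodes the main muscle lipin, which also acts in the nucleus as a coactivator of genes for fatty acid oxidation. Its brightest probe set read 20601 (Control), 15768 (HF) and 16653 (HF + SFC), and the second 12429, 10320 and 10908. Control was highest on both probe sets, and both high-fat arrays were lower by similar amounts. The HF to Control ratios were 0.765 and 0.830, and those of HF + SFC to HF were both 1.06. Of 508 genes with a mean signal above 10000, 95% had HF to Control ratios from 0.830 to 1.23, with a median of 0.967, so that the brightest probe set of Lpin1, which may bind several transcripts, lay below the range and the second just inside its lower edge. Both lay inside the middle 95% of all genes above the 75th percentile of signal (0.729 to 1.41). Lpin2, a lipin better known from liver, read 178, 223 and 204. The HF to Control ratio of 1.25 lay within the middle 95% of 1870 genes with signals from 150 to 300 (0.622 to 1.80). Its next probe set read 69.8, 73.4 and 64.0, close to the array medians, and the other 2 were below the median signal and went as far as 5.27-fold (9.25 in Control and 48.7 in HF).

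The enzymes of the last step, which are unrelated proteins, differed in size of change. Dgat1 esterifies fatty acids in the endoplasmic reticulum membrane. On a probe set that may bind several transcripts it read 461, 477 and 446 in Control, HF and HF + SFC. These differed by less than 1.1-fold, while a dim second probe set read 26.3, 16.8 and 37.1. Dgat2, the form linked to fatty acids made within the cell, read 1253 (Control), 1834 (HF) and 1539 (HF + SFC). Its second probe set read 651, 980 and 807. The 2 probe sets gave nearly the same ratios, 1.46 and just over 1.5 for HF to Control and 0.839 and 0.823 for HF + SFC to HF. HF was highest on both, with HF + SFC between the other arrays. Among 1633 genes with signals from 1000 to 2000, the middle 95% of HF to Control ratios ran from 0.758 to 1.41, below the value of Dgat2.

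**Figure D2:**
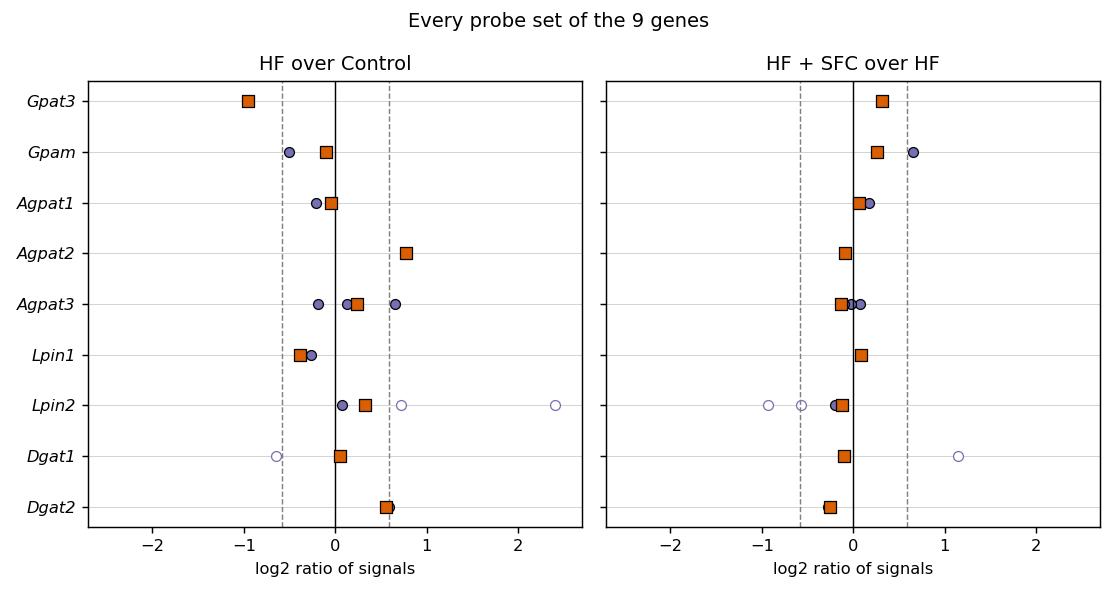
Log2 ratio of signals, HF over Control (left) and HF + SFC over HF (right), for each of the 20 probe sets of the 9 genes. Squares are the brightest probe set of a gene, filled circles its other probe sets, open circles those below the median signal, and dashed lines 1.5-fold; in HF over Control the squares of Gpat3 (-0.95) and Agpat2 (0.77) lie outside the lines, and in HF + SFC over HF no square does.

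Promoter windows from RefSeq (build GRCm38.p6, 250 bases before and 50 after a start of transcription) matched 7 of the 9 genes with 11 windows, and Dgat1 and Dgat2 had no entry. Those of Gpat3, Lpin1 and Agpat2 are shown because their brightest probe sets lay outside the range of genes of like signal in HF against Control. They were lower for Gpat3 and Lpin1 (whose second probe set lay inside) and higher for Agpat2. The limits of like signal were chosen after the values were seen. In the wider classes split at the 75th percentile of signal, Gpat3 (0.516) still lay outside its range (0.548 to 2.11). Agpat2 (1.70) lay inside that same range, and Lpin1 (0.765) inside that of its class (0.729 to 1.41). The letters are 5′ to 3′ on the gene's strand, and capitals mark any match, on either strand, to the TATA box, CCAAT box, GC box, E-box, a part of the glucocorticoid element or a nuclear receptor half-site. The windows lie at chr5:100845979-100846278 on the plus strand for Gpat3, chr12:16610917-16611216 on the minus strand for Lpin1 and chr2:26604368-26604667 on the minus strand for Agpat2.
Gpat3: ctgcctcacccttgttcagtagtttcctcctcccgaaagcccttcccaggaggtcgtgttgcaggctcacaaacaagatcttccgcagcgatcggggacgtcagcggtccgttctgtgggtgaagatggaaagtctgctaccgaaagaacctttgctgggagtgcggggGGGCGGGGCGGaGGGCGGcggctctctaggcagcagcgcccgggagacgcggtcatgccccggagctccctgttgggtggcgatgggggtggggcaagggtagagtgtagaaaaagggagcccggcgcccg
Lpin1: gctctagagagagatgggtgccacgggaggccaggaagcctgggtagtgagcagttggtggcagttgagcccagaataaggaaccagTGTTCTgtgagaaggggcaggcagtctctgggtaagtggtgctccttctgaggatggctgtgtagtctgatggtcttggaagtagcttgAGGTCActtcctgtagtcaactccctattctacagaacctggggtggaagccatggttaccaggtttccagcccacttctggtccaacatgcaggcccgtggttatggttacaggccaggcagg
Agpat2: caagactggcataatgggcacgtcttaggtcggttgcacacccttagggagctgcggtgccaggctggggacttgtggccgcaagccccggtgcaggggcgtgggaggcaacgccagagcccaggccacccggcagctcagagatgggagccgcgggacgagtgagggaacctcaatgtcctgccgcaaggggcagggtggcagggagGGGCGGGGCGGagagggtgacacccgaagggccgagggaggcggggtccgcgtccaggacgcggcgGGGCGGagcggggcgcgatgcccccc

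The windows of Gpat3 and Agpat2 were both rich in G and C (64.3% and 72.0%) and each held 3 matches to the GC box, of which the first pair overlapped by 1 base. In Gpat3 these began 81, 76 and 69 bases before the start, and in Agpat2 42 and 37 before it and 25 after. The GC box searched, GGGCGG, was present in 35.7% of 32851 promoter windows of this length and in 7 of the 11 windows of these genes. The window of Lpin1 was less rich in G and C (55.3%, near the median of 52.7% over all windows), held 2 CpG sites against 23 for Gpat3, and had no GC box. It held 1 match to the glucocorticoid element part AGAACA, 163 bases before the start, and 1 nuclear receptor half-site (AGGTCA) at 74 bases. AGAACA was found in 19% of all windows and in 2 of the 11, also in Lpin2. AGGTCA was found in 16.3% of all windows and in 3 of the 11, also in Gpam and Agpat1. A TATA box (letters TATAAA), present in 13.6% of all windows, was in none of the 11. A CCAAT box, named by its letters and found in 37.4% of all, was in 3. The E-box searched was CACGTG, found in 7.15% of all windows and in 1 of the 11, that of Lpin2. These matches describe letters in the windows and not binding.

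Between HF and HF + SFC, none of the 9 genes differed by 1.5-fold on its brightest probe set. That fold was passed upward by 13.7% of all genes in this comparison and downward by 13.5%, but by only 0.298% and 0.655% of those above the 75th percentile of signal, where 6 of the 9 members lie, and by 7.27% and 8.5% of those between the median and the 75th percentile. An absence of such members is thus close to the background. The log2 ratios of the 9 genes ran from -0.25 for Dgat2 to 0.32 for Gpat3, 4 above and 5 below 0, and their median was -0.09, against 0.01 over all genes. After Gpat3 (1.25-fold), Gpam was the next highest at 1.19-fold, but bright genes were higher in general in this comparison. Of the 508 genes with a mean signal above 10000, 75.4% read higher with SFC than on HF alone, at a median ratio of 1.06 and a middle 95% from 0.865 to 1.21, which held Gpam. Gpat3 and Dgat2 also lay within the middle 95% of genes of like signal (0.678 to 1.43 and 0.776 to 1.25). The HF array is shared by this comparison and by that of HF with Control, so its readings enter both.

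Compared with Control, HF + SFC muscle differed most in Agpat2 and Gpat3. The ratios were 1.60 for Agpat2 and 0.643 for Gpat3, the only members past 1.5-fold. Over all genes 16.5% were that much higher and 12.4% that much lower, and between the median and the 75th percentile of signal 10.3% were higher and 7.8% lower (0.953% and 1.04% above the 75th percentile). The brightest probe set of Lpin1 was at 0.808-fold, below the middle 95% of the 508 brightest genes (0.856 to 1.21), and its second probe set at 0.878-fold, inside it. Among all genes above the 75th percentile of signal the middle 95% ran from 0.743 to 1.33 and held both. Dgat2 was at 1.23-fold, inside the range of its signal class (0.735 to 1.31). The 9 genes had a median log2 ratio of 0.10, 6 being above 0 and 3 below.

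**Figure D3:**
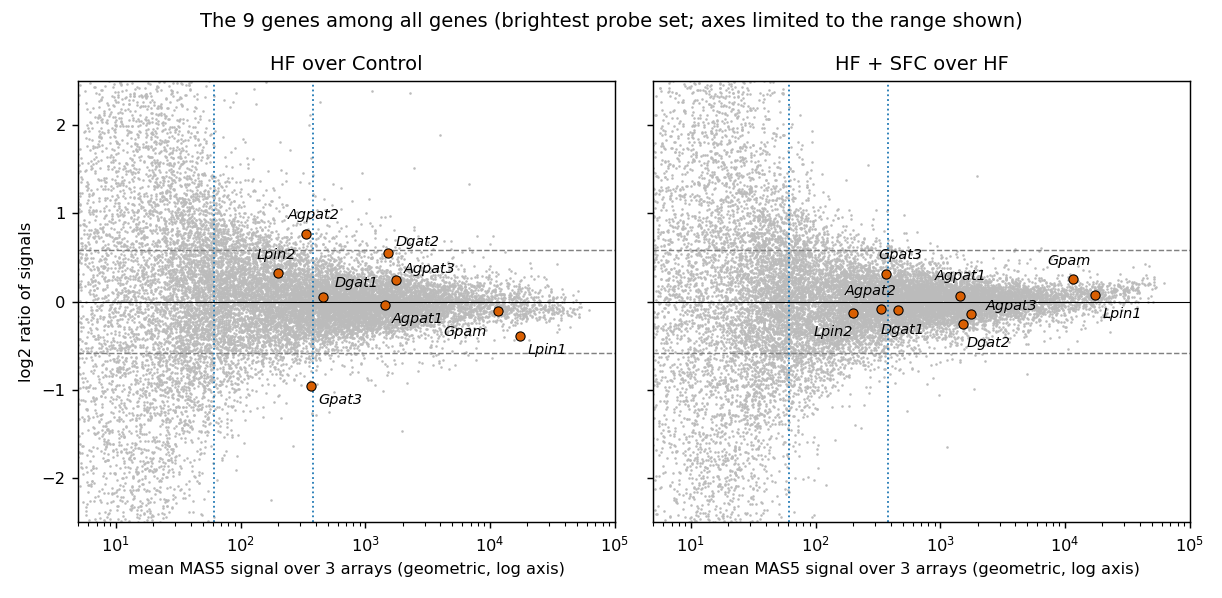
Log2 ratio of signals against the geometric mean signal over the 3 arrays (MAS5 units, log axis) for all 18193 genes (grey points; those outside the axes are not drawn) and the 9 genes (orange), HF over Control (left) and HF + SFC over HF (right). Blue dotted lines are the median and the 75th percentile of signal (60.9 and 384), dashed lines 1.5-fold; on the left Gpat3, Agpat2, Dgat2 and Lpin1 lie at the edge of the grey band, and on the right all 9 lie within it.

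Markers of other cells differed between the same arrays. All 9 measured adipocyte markers read higher in HF relative to Control (median log2 ratio 0.75), and their summed signal was 71379 (Control), 85713 (HF) and 82325 (HF + SFC). Car3, which muscle also expresses, and Fabp4 made up 97.1% of the Control sum, with HF to Control ratios of 1.09 and 1.23, and the other 7 markers summed to 2063, 7263 and 5041. The adipocyte hormone leptin (Lep) read 45.8, 592 and 387, and adiponectin (Adipoq) 901, 4637 and 2915. None was at 0, and the lowest reading was that of Lep in Control, below the array median of 63.6. Fat cells use the same enzymes of triglyceride synthesis, and of the 9 genes 5 read higher and 4 lower in HF than in Control. All 9 fibroblast and matrix markers were also higher in HF (median 0.39, summed signal 32566, 41172 and 40623), as were 8 of 9 macrophage and leukocyte markers (0.35, 3121, 3963 and 3789). The 6 endothelial markers were split, 3 above and 3 below Control (-0.05). The measured erythroid markers had a summed signal of 143, 165 and 153. Of these, Alas2 read 141, 160 and 103, while Hba-a1 lay below the median signal (1.47, 4.58 and 49.7), where no direction can be read. The 9 slow fibre markers were lower in HF (median log2 ratio -0.45, summed signal 101870, 74080 and 94642), as were the 11 fast fibre markers (-0.14), whose summed signal was 514373, 470118 and 551744. In HF + SFC against HF, 6 of 9 adipocyte markers were lower (median -0.14), as were 6 of 9 fibroblast and 6 of 9 leukocyte markers (-0.08 and -0.06), and all slow and fast fibre markers were higher (0.40 and 0.22). All fast and some slow fibre markers were among the 508 genes with a mean signal above 10000. Of those 508 genes 75.4% were higher in HF + SFC against HF (median log2 ratio 0.08) and 35.2% in HF against Control (-0.05). The part of fat cells, fibre types or other cells in the values of the 9 genes was not tested, and in whole muscle fewer cells of a type and less RNA per cell cannot be told apart. All 11 fast fibre markers lay above the median signal. Of the 3 measured liver markers, apolipoprotein A-I (Apoa1) and transthyretin (Ttr) lay below it, and albumin (Alb) lay above it with 55.3, 101 and 69.0 (1.82-fold, HF to Control). The 3' to 5' ratio of the beta-actin control probe sets, a sign of RNA integrity, read 1.09, 1.52 and 1.15 for Control, HF and HF + SFC, and that of Gapdh ran from 0.820 to 0.842.

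Other enzymes of the same or related steps were followed through a list of 9 genes, of which 5 lay above the median signal. Agpat4, another acyltransferase of the second step, was the only one of the 5 past 1.5-fold in HF against Control, with 153 (Control), 289 (HF) and 221 (HF + SFC), 1.88-fold. In HF + SFC against HF it had the lowest ratio of the 5 (0.764), and the endoplasmic reticulum enzyme Gpat4 the highest (436, 379 and 449, 1.19-fold). Against Control, HF + SFC ratios ran from 1.03 for Lclat1 to 1.44 for Agpat4. The remaining 4, Gpat2, Lpin3, Mogat1 and Mogat2, read between 5.74 and 61.6 on all arrays, a range in which no direction can be read. Among the 5 above the median signal, 3 were above and 2 below Control in HF (median log2 ratio 0.16), and with SFC 3 were above and 2 below HF (0.08).

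A list of 9 measured genes around glycerol 3-phosphate held enzymes and channels of its supply and also Gpd2, which oxidises it, and Pgp, which removes its phosphate. Of these, 8 were below Control in HF (median log2 ratio -0.08), Gpd2 (0.887-fold) and Pgp (0.935-fold) among them. Only Pck1, the cytosolic enzyme of glyceroneogenesis, passed 1.5-fold among those above the median signal. It read 219 (Control), 119 (HF) and 166 (HF + SFC), 0.544-fold for HF to Control. Gpd1, which makes glycerol 3-phosphate from a glycolytic intermediate, read 4992, 4713 and 5049. In HF + SFC against HF, 7 of 9 were higher (median 0.13), from Gpd1l at 0.930 to Pck1 at 1.39 among those above the median signal, and against Control these ran from Pck1 at 0.757 to the glycolytic enzyme Aldoa at 1.09.

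Of the 8 pathway lists, the medians farthest from 0 in HF against Control and in HF + SFC against HF were those of the diacylglycerol kinases, which return diacylglycerol to phosphatidate, and lipid phosphate phosphatases, which act on phosphatidate outside the lipin route. Of the 11 measured genes 8 were below Control in HF (median log2 ratio -0.33), and with SFC 10 were above HF (0.35). Without Dgki, which lay below the median signal, 7 of 10 were below Control (-0.28) and 9 of 10 above HF (0.32). Dgka, a kinase best known from T cells, read 534 (Control), 279 (HF) and 452 (HF + SFC), ratios of 0.522 and 1.62. Dgkq read 77.7, 50.9 and 106, not far from the array medians of 63.6, 67.4 and 68.0. Dgkz, an abundant kinase of muscle, read 1446, 1236 and 1578. Dgke read 83.8, 101 and 134 and was the only one above the median signal past 1.5-fold in HF + SFC against Control (1.60). The phosphatases Plpp1 (3128, 3285 and 3237) and Plpp3 (5498, 6111 and 6458) were slightly higher in HF than in Control. The HF array is in both comparisons of this list.

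Phospholipid synthesis showed no common direction. Of 20 measured genes 9 were above and 11 below Control in HF (median log2 ratio -0.02), and with SFC 12 were above and 8 below HF (0.06). Among those above the median signal, choline kinase alpha (Chka) read 69.2, 116 and 121 (1.67-fold, HF to Control) and Pemt, which methylates phosphatidylethanolamine, 97.0, 146 and 122 (1.51-fold). Chka in Control was close to the array median of 63.6. Between the median and the 75th percentile of signal, 12.2% of genes were 1.5-fold higher in HF than in Control. With SFC relative to HF, the highest of those listed above the median signal was choline kinase beta (Chkb), at 694, 536 and 782 (1.46-fold). The lowest was Ptdss2, a phosphatidylserine synthase (0.818). Chka and Pisd, the mitochondrial phosphatidylserine decarboxylase, were past 1.5-fold in HF + SFC against Control, Pisd with 682, 1019 and 1186. The 5 genes of ether lipid synthesis had a median of -0.06 in HF against Control and -0.04 in HF + SFC against HF, and none reached 1.5-fold in either. Among its genes above the median signal the ratios ran from Gnpat at 0.945 to Far1 at 1.19 in HF against Control and from Gnpat at 0.943 to Agps at 1.19 in HF + SFC against HF, and in HF + SFC against Control from Gnpat at 0.891 to Agps at 1.14.

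Triglyceride storage was followed through 9 measured genes, which included the transcription factor gene Mlx. Of these, 6 were above and 3 below Control in HF (median log2 ratio 0.10), with Mlx among the former at 1.01-fold. G0s2, an inhibitor of the lipase ATGL, read 466 (Control), 1276 (HF) and 1368 (HF + SFC), 2.74-fold for HF to Control. Hilpda, another inhibitor of that lipase, read 101, 158 and 145 (1.57-fold). Ctdnep1, a phosphatase that activates lipins, read 4241, 3279 and 3825, and its partner Cnep1r1 6764, 7268 and 7323. Relative to HF the ratios with SFC ran from 0.816 for seipin (Bscl2) to 1.17 for Ctdnep1. Against Control, G0s2 and the lipid droplet protein gene Tmem159 (329, 458 and 510) were past 1.5-fold in HF + SFC.

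**Figure D4:**
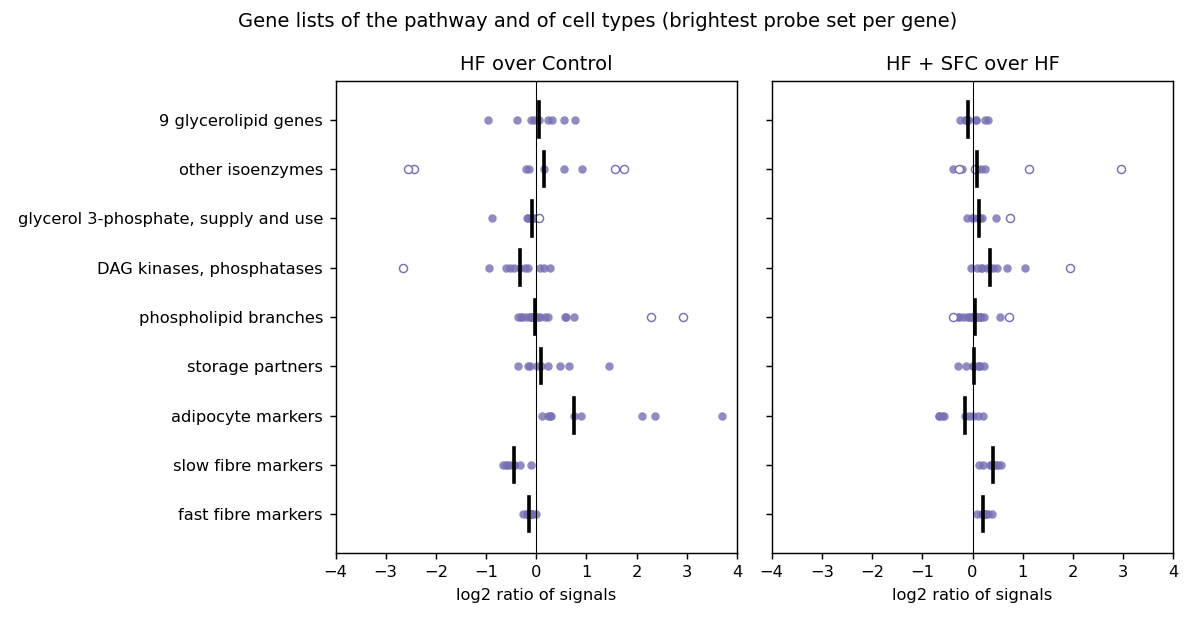
Log2 ratio of signals, HF over Control (left) and HF + SFC over HF (right), for each measured gene of 9 gene lists (DAG, diacylglycerol), brightest probe set per gene. Filled points lie above the median signal, open points below it, and black bars are list medians; the diacylglycerol kinase and phosphatase list has medians of -0.33 and 0.35, the slow fibre markers -0.45 and 0.40, and the 9 glycerolipid genes 0.05 and -0.09.

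Transcription regulators known for glycerolipid genes stayed within 1.5-fold in HF against Control. Of 14 measured, 6 were above and 8 below Control (median log2 ratio -0.07), from Klf15, a factor that responds to glucocorticoids (1567, 1114 and 1056, 0.711-fold), to Cebpa (264, 342 and 284, 1.30-fold). Relative to HF, 5 were above and 9 below with SFC (median -0.06), from Pparg, also counted with the adipocyte markers (113, 133 and 89.7, 0.676-fold), to Srebf2 at 1.21-fold. Ppargc1a, the coactivator with which lipin 1 acts, read 2991, 2515 and 1803 and was the only one past 1.5-fold in HF + SFC against Control (0.603). Because Lpin1 is a known glucocorticoid and fasting target, 13 genes of that kind were set beside it, of which 9 were below and 4 above Control in HF (median -0.23). Mt2, a metallothionein, read 1326, 2157 and 1853 (1.63-fold) and Pdk4 41206, 33192 and 34274. With SFC, relative to HF, their median was 0.01, from Mt1 at 0.758 to Foxo3 at 1.25, and Zbtb16 was the only one past 1.5-fold in HF + SFC against Control (4861, 3432 and 3073, 0.632-fold).

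The genes most like Gpat3, the member with the widest range, were sought among 6716 genes above the 75th percentile of signal, by the distance between log2 signals centred on each gene's mean over the 3 arrays. The nearest were Plet1os (842, 415 and 516), Arrdc2 (2084, 1194 and 1451), Pim3 (3649, 2113 and 2351), Wdr75 and Gramd4, at distances of 0.05 to 0.18 on the log2 scale. With only 3 points per gene, such nearness describes these arrays alone.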

How the data were processed

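Gastrocnemius RNA of the Control, HF and HF + SFC groups was measured on the Affymetrix GeneChip Mouse Genome array of the study, with 1 array for each group and each array a mix of all its samples. The authors deposited linear intensities made with MAS5 (version not given in the sources used here). On every array their mean was 500.0 once 2% of values were trimmed from either end. The array medians were 63.6, 67.4 and 68.0 for Control, HF and HF + SFC. No detection calls were used here. Precision is limited by the number of arrays.

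The array holds 45101 probe sets, 64 of them controls. A single gene symbol was given for 34945, several for 932 and none for 9160. Current symbols came from a GRCm38.p6 RefSeq table, in which the gene ID of 34741 probe sets was found. Ratios were taken between arrays from the brightest probe set with no offset, and a gene was called at 1.5-fold or more. As each group had 1 array, no statistical test was run. Members and lists (8 pathway lists and 8 cell type lists, from textbook knowledge) were chosen with earlier results of these data known. Named genes were all members and, in each pathway list and comparison, genes past 1.5-fold above the median signal, or else the highest and lowest ratio there, plus the 5 genes nearest to the member with the widest range. Lep, Adipoq, Car3, Fabp4, Alas2, Hba-a1, Alb, Apoa1, Ttr, Gpd2, Pgp, Plpp1, Plpp3, Dgkz, Gpd1, Ctdnep1, Cnep1r1, Klf15 and Pdk4 in some comparisons, and the windows of signal (150 to 300, 300 to 500, 1000 to 2000 and above 10000), were chosen after the values were seen. Listed genes without a probe set of a single symbol were not analysed here. The alternatives were all probe sets averaged, the next brightest probe set, an offset of 50, quantile normalization, a filter at the median signal, median centring, removal of probe sets shared by several transcripts, and 2-fold. The ratio and threshold steps were run on simulated data without noise, which checks their arithmetic and not the precision of single arrays. Python 3.11.15, numpy 2.4.6 and pandas 2.3.3 were used.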

Additional observations from a re-analysis of the deposited data

How the results depend on the processing

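No paired analysis was possible because each group had a single array. The median log2 ratio of the 9 genes lay near 0 and its sign changed with the probe set used and, for HF over Control, with median centring. For HF over Control (0.05) it was -0.13 with all probe sets averaged and -0.21 on the next brightest probe set of the 7 genes with more than 1. It was -0.043 after removal of probe sets shared by several transcripts. With median centring it was -0.035, while the median over all genes was -0.076, against 0.007 in the main setting. For HF + SFC over HF (-0.09) it was 0.079 with all probe sets averaged, 0.080 on the next brightest and 0.062 after removal of probe sets shared by several transcripts. For HF + SFC over Control (0.10) it was -0.039 on the next brightest. The number of genes at 1.5-fold or more was 2, 0 and 2 in these comparisons. For HF over Control it was 3 with all probe sets averaged (of all genes 19.4% were higher and 14.0% lower). After removal of probe sets shared by several transcripts it was also 3 (18.6% and 13.2%). On the next brightest probe set it became 2 for HF + SFC over HF (all genes 16.3% and 15.4%) and 0 for HF + SFC over Control (18.9% and 14.7%). After removal of probe sets shared by several transcripts it was 1 for HF + SFC over HF (15.0% and 14.7%). For HF + SFC over Control it was 1 with median centring (14.8% and 14.3%) and 0 with an offset of 50 (4.89% and 3.29%). At 2-fold, where the share of all genes was not counted, it was 0 for HF over Control and 0 for HF + SFC over Control. After removal of shared probe sets the gene added was Dgat1, read there from its dim probe set. Its log2 ratios were -0.65 for HF over Control and 1.15 for HF + SFC over HF. With all probe sets averaged, the gene added for HF over Control was Lpin2 (0.88), whose average takes in probe sets below the median signal. The cause of the other changes was not tested. The filter at the median signal kept the same probe sets, so it could change nothing and is not counted. Of 156 values of single genes under the other alternatives, 139 kept the sign of their main value and 17 did not, 8 of these on the next brightest probe set. The 27 values under quantile normalization and the 27 with an offset of 50 all kept it. Gpat3 and Agpat2 have 1 probe set each and so no check by another. Probe sets below the median signal limit what can be read for Lpin2, Dgat1 and the dim isoenzymes.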
